A study of Cervus nippon with 12 samples.

Results

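The let-7 family is among the best known families of animal miRNAs, and 8 of its mature members were listed in small RNA libraries of sika deer (Cervus nippon) antler cells: bta-let-7a-5p (let-7a in what follows), bta-let-7b, bta-let-7c, bta-let-7d, bta-let-7e, bta-let-7f, bta-let-7g and bta-let-7i. They were chosen by name from the 545 miRNAs listed, 475 with the cattle prefix bta- and 70 predicted ones with a number. The 3p arm of let-7a was left out, and so was miR-3596, because it holds the reads of let-7b under another name: over the 12 libraries let-7b had 147960 reads and miR-3596 had 147957, and they differed by at most 2 reads in any library. The study asked which miRNAs change while reserve mesenchyme cells (RMCs), the stem-like cells at the tip of the growing antler, turn into cartilage. RMCs with a wild type genotype were taken before chondrogenic induction (CP_0, day 0) and after 7 days (CP_7) or 14 days (CP_14) of it, for which a chondrogenic medium replaced the serum medium in which they were kept. The paper's induction protocol first put 500000 cells into centrifuge tubes, and the paper calls its later inductions pellet culture. It does not say whether the CP_0 cells were pelleted too, so that pellet culture and medium cannot be told apart. Chondrocytes cultured from antler cartilage, also wild type, formed the fourth group (CC). Each group had 3 libraries, the cells came from antler tips of adult male deer, and the labels do not say which library came from which animal, so that p-values measure the spread between these libraries.

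All let-7 miRNAs begin with the same seed, the short stretch that pairs with target mRNAs, and known targets include HMGA2, MYC and RAS genes. The family is known for rising as stem and progenitor cells differentiate, and LIN28 proteins hold it back in immature cells by blocking the processing of its precursors. In the mouse growth plate, LIN28 that chondrocytes are forced to make lowers let-7 and slows their proliferation. In mammals let-7c is encoded beside miR-99a, let-7e beside miR-99b and miR-125a, and 1 of the let-7a genes beside miR-100 and a miR-125b gene, which need not be the only source of mature miR-125b. Other let-7a genes lie next to let-7f, let-7d or let-7b, a let-7f gene lies next to miR-98, and let-7g and let-7i are encoded on their own. The mature forms differ from each other by only a few bases, so that the authors' counting could have moved reads between members.

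The deposited values are the reads of a miRNA per 1000000 miRNA reads of its library (RPM). Every read stands for a whole mature miRNA, so RPM needs no division by length. The libraries held 539455 to 1032029 reads in CP_7, 2791559 to 4097304 in CP_0 and CP_14, and 9714090 to 10256572 in CC. The member with the fewest reads in any library was let-7d with 263 (counting error 6.17%), and let-7i never had fewer than 77308 (0.360%). Since miR-21-5p took 21.4% to 24.3% of the reads in CP_7 but 45.0% to 76.9% elsewhere, levels are also given after TMM composition factors, which ran from 1.68 to 2.09 in CP_7, from 0.847 to 1.02 in CP_0 and CP_14 and from 0.559 to 0.650 in CC. Cartilage miRNAs (miR-140 and both arms of miR-455) summed to 9043 to 11415 RPM and were detected in every group. Nearly all of that sum was miR-140, at 8831 to 10341 RPM in CP_0 and 9056 to 10802 in CP_7 as deposited. limma on TMM-normalized RPM called it lower at day 7 than at day 0 (log2 fold change -1.03), a fall that RPM as deposited did not show. By the same test miR-455-3p was called higher (1.43) and miR-455-5p was not called (0.25, adjusted p = 0.102). As deposited, miR-455-3p was at 133 to 140 RPM in CP_7 against 20.9 to 26.1 in CP_0, and miR-455-5p at 480 to 514 against 185 to 220. The 7 blood miRNAs summed to 1394 to 1468 RPM in CC, 3508 to 5200 in CP_14 (miR-144 at 0) and 23.4 to 163 in CP_7 (miR-144 and miR-223 at 0). In CP_0 they summed to 14.4 to 4223 RPM, and replicate 3 stood apart from the others. Nearly all of the blood sum in CC and CP_14 was miR-451 and miR-486. In CP_14 these were at 1581 to 2304 and 1905 to 2863 RPM, and no other blood miRNA passed 23.3. The 4 muscle miRNAs summed to 4536 to 6633 RPM in CP_7 against 535 to 683 in CP_0. After TMM factors 3 of the 4 were called higher, where 35.8% of all tested miRNAs were. Their log2 fold changes were 2.04 (miR-1), 2.20 (miR-133a) and 2.39 (miR-133b). The endothelial miR-126 arms summed to 188 to 3083 RPM in CP_7 and to at most 83.6 in the other groups, and the 5 epithelial miRNAs to at most 44.4 in any library. In bulk RNA, fewer cells of a type and less RNA per cell cannot be told apart. The part of these other cell type miRNAs in the let-7 levels was not tested.

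The 8 let-7 members together took 7.53%, 7.27% and 6.82% of the reads in the 3 libraries of CP_0. They took 24.4%, 24.5% and 21.4% in CP_7. In CP_14 the shares were 7.02%, 7.11% and 7.42%, and in CC they were 5.39%, 5.34% and 5.61%. CP_7 therefore stood far above all other libraries, CP_0 and CP_14 overlapped, and CC was the lowest group. The mean share in CP_7 was 3.25 times that in CP_0 and 3.26 times that in CP_14. The 4 groups differed in an exact permutation test of the log2 share over all 15400 partitions of the 12 libraries into 4 groups of 3 (p = 0.000649), while 3 libraries against 3 cannot give a p below 0.1. The order of the lower groups depended on miR-21-5p. With its reads left out of the total, let-7 took 27.2% to 32.2% in CP_7, 20.7% to 23.4% in CC, 16.8% to 19.0% in CP_0 and 12.8% to 16.1% in CP_14, so that CP_7 was still the highest group at 1.68 times CP_0, but CC now lay above CP_0 and CP_14 (exact permutation test, p = 6.5e-05, the smallest that the partitions allow). On the sum of TMM-normalized RPM the means were 123628 ± 21490 (SD, n = 3) in CP_7, 90571 ± 5218 in CC, 82164 ± 3271 in CP_0 and 72500 ± 5988 in CP_14.

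**Figure D1:**
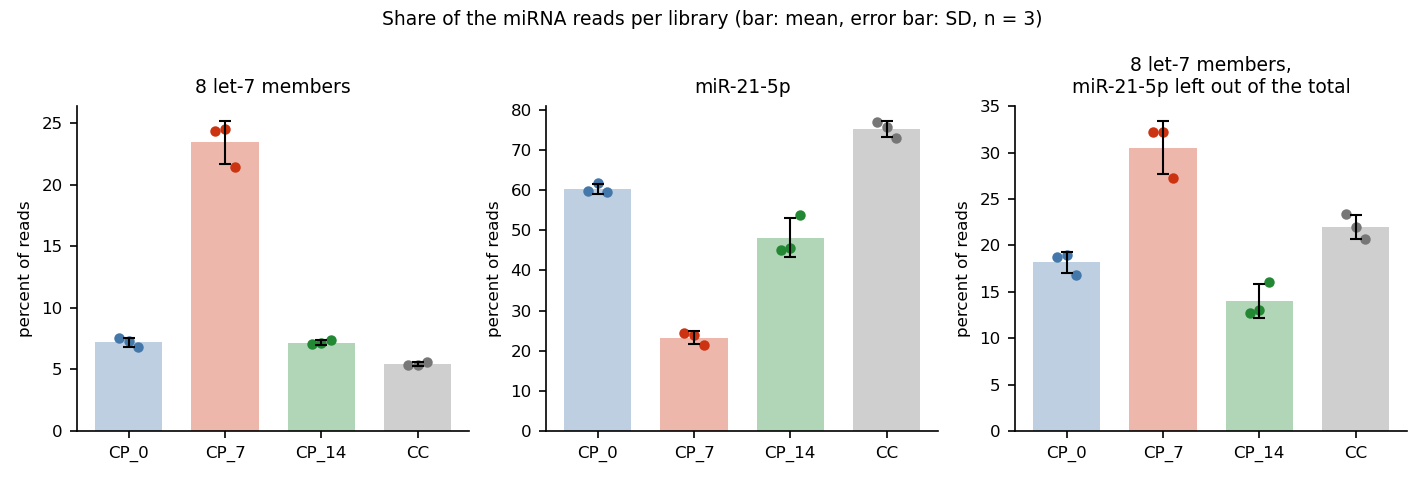
Percent of the miRNA reads in each library held by the 8 let-7 members (left), by miR-21-5p (middle) and by let-7 when miR-21-5p is left out of the total (right), with points for libraries, bars for group means and error bars for the SD (n = 3). The CP_7 libraries lie at 21.4% to 24.5% in the left panel, and CC moves from below CP_14 on the left to above it on the right.

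Within the family let-7i was by far the most abundant member, the third most abundant of all listed miRNAs in CP_0, CP_14 and CC and the second in CP_7. It measured 54038, 52561 and 48730 RPM in CP_0, 161262, 167535 and 143308 in CP_7, 49428, 49988 and 53121 in CP_14, and 35133, 34238 and 36148 in CC. Its CP_7 libraries were the highest and its CC libraries the lowest, while CP_0 and CP_14 overlapped. Next came let-7f, with 7728, 7489 and 7222 RPM in CP_0, 25540, 23261 and 19970 in CP_7, 7885, 8037 and 8302 in CP_14, and 7843, 7968 and 8168 in CC. Outside CP_7 its 9 libraries lay close together. Its neighbour let-7a measured 5531, 5116 and 5017 RPM in CP_0, 22617, 20611 and 18938 in CP_7, 5842, 5959 and 5694 in CP_14, and 4253, 4432 and 4644 in CC.

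let-7g and let-7b came next in level. For let-7g the values were 4234, 4128 and 3840 RPM in CP_0, 16984, 17032 and 15065 in CP_7, 3493, 3568 and 3700 in CP_14, and 3877, 3864 and 4013 in CC. For let-7b they were 2914, 2611 and 2566 RPM in CP_0, 12494, 12874 and 12589 in CP_7, 2675, 2605 and 2550 in CP_14, and 2034, 2135 and 2283 in CC. Both were far higher in every CP_7 library than in any other library. The 3 remaining members were far less abundant. let-7e had 436, 416 and 405 RPM in CP_0, 1377, 1251 and 1223 in CP_7, 542, 544 and 493 in CP_14, and 371, 388 and 420 in CC. let-7c, the member beside miR-99a, had 291, 257 and 275 RPM in CP_0, 2761, 1874 and 2551 in CP_7, 242, 223 and 243 in CP_14, and 272, 283 and 276 in CC. It was the member with the widest gap between CP_7 and the other libraries, 10.1 times between the highest and the lowest group mean. let-7d was the rarest, with 88.4, 94.2 and 94.9 RPM in CP_0, 531, 456 and 545 in CP_7, 131, 133 and 116 in CP_14, and 92.7, 102 and 106 in CC.

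The order of levels, let-7i, let-7f, let-7a, let-7g, let-7b, let-7e, let-7c and let-7d from high to low, was the same in CP_0, CP_14 and CC, and the ranges of neighbours in that order did not overlap in any of these groups. In CP_7 let-7c stood above let-7e in all 3 libraries. There the ranges of let-7f and let-7a overlapped, although let-7a was lower in each library. How evenly the library kit ligates the members is unknown, so this order is that of reads.

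**Figure D2:**
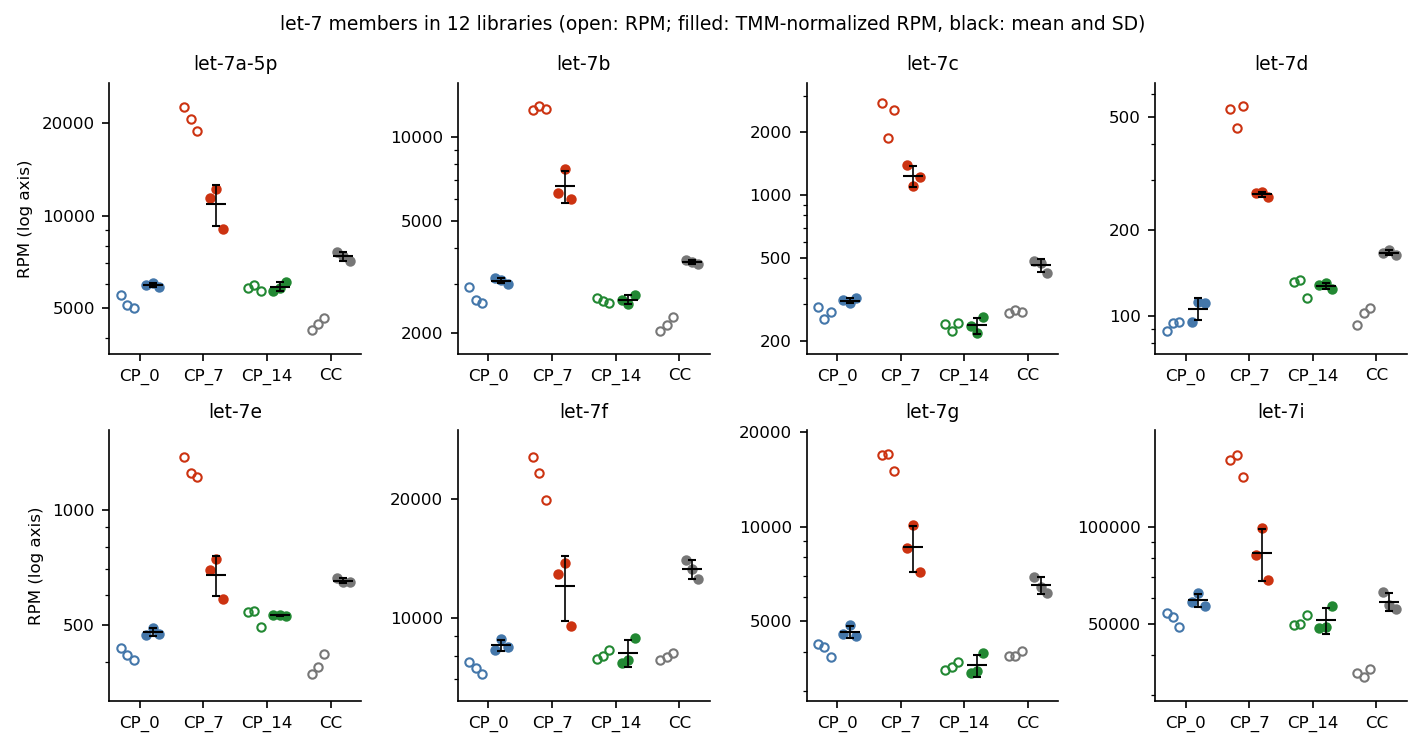
Level of each let-7 member in the 12 libraries, in RPM on a log axis, as deposited (open circles) and after TMM factors (filled circles, with the mean and SD in black, n = 3). The CP_7 libraries are the highest for all 8 members as deposited, and after TMM factors the CC libraries move up and overlap CP_7 for let-7e and let-7f.

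After 7 days of induction all 8 members were higher than at day 0, by 1.44-fold (let-7i) to 4.09-fold (let-7c). limma on log2(TMM-normalized RPM + 1), with p-values adjusted by Benjamini-Hochberg over 246 tested miRNAs and a threshold of 0.05, called 8 of 8 members, against a background of 63.8% of all miRNAs called and 35.8% called higher. Both groups did not overlap for all 8 members, which was the case for 67.9% of the miRNAs tested. The median log2 fold change of the members was 0.92, against 0.075 over all miRNAs tested. The largest rise was that of let-7c, from 314, 303 and 321 TMM-normalized RPM at day 0 to 1396, 1112 and 1219 at day 7 (log2 fold change 2.03, SE 0.14, adjusted p = 1.82e-05), and 88.6% of the tested miRNAs had a lower fold change. let-7d rose with a log2 fold change of 1.38 (SE 0.12, adjusted p = 6.79e-05) and let-7b with 1.16 (SE 0.083, adjusted p = 2.26e-05). These 3 members rose at least 2-fold, as 44.3% of the tested miRNAs changed in either direction. let-7g (0.93, SE 0.12) and let-7a (0.91, SE 0.11) followed. The smallest rises were those of let-7e (0.54, SE 0.11, adjusted p = 0.0035), let-7f (0.54, SE 0.14, adjusted p = 0.0104) and let-7i (0.53, SE 0.12, adjusted p = 0.00747). For let-7i the TMM-normalized values were 58211, 62086 and 56902 RPM at day 0 and 81513, 99450 and 68513 at day 7, so that the CP_7 libraries were wide apart but above every CP_0 library. Without CP_7 replicate 1, or without replicate 2, let-7e, let-7f and let-7i lost the call and 5 of 8 members were called. With upper-quartile factors the log2 fold changes of let-7e, let-7f and let-7i were 0.19, 0.19 and 0.18 (adjusted p = 0.136, 0.238 and 0.207), and the other 5 members were called. All 8 were called without CP_0 replicate 3, the CP_0 library with the most blood miRNAs.

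From day 7 to day 14 all 8 members fell again. limma called 8 of 8 lower, against a background of 52.8% of 246 miRNAs called and 28.5% called lower, and the groups did not overlap for any member (62.2% of all tested). The median log2 fold change of the members was -1.05, against -0.0089 over all miRNAs tested. let-7c fell by 2.45 on the log2 scale (SE 0.15, adjusted p = 1.53e-05), to 236, 218 and 260 TMM-normalized RPM, and 3.66% of the tested miRNAs had a lower fold change. let-7b fell by 1.41 (SE 0.081), let-7g by 1.32 (SE 0.12) and let-7d by 1.14 (SE 0.10), and these 4 members fell at least 2-fold (30.9% of all tested changed that much in either direction). let-7a fell by 0.96 (SE 0.11) and let-7i by 0.76 (SE 0.13). let-7f fell by 0.63 (SE 0.14, adjusted p = 0.00828) and let-7e by 0.42 (SE 0.10, adjusted p = 0.0115). Without CP_7 replicate 1, or without replicate 2, let-7e and let-7f lost the call and 6 members were called. With the replicate number as a block let-7e alone lost it (adjusted p = 0.0539), as it did with upper-quartile factors (0.0580). The comparisons with day 0 and day 14 share the CP_7 libraries, so that their opposite directions are not independent of each other.

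Between day 0 and day 14 the members differed little. limma called 4 of 8, where 46% of 250 miRNAs were called, 24.8% higher and 21.2% lower. No member changed 2-fold, as 19.2% of all tested did. The groups did not overlap for 5 members (56.4% of all tested). let-7c, at 314, 303 and 321 TMM-normalized RPM in CP_0 and 236, 218 and 260 in CP_14, was lower at day 14 (log2 fold change -0.37, SE 0.084, adjusted p = 0.00897). let-7g was lower too (-0.34, SE 0.076, adjusted p = 0.00868), as was let-7b (-0.21, SE 0.056, adjusted p = 0.0196). let-7d was the single member called higher, at 95.3, 111 and 111 TMM-normalized RPM in CP_0 and 128, 130 and 124 in CP_14 (0.29, SE 0.092, adjusted p = 0.0374). The log2 fold changes of the other members were 0.17 for let-7e (adjusted p = 0.0531), -0.19 for let-7i (0.0876), -0.051 for let-7f (0.572) and -0.0011 for let-7a (0.983). The call of let-7d was lost with each library that was left out, and that of let-7b without CP_0 replicate 1 or 2, which left 2 members called. Without CP_0 replicate 3, 3 members were called. Upper-quartile factors called let-7i lower (-0.44, adjusted p = 0.0241) and let-7d no longer (0.035, adjusted p = 0.817). With the replicate number as a block 2 members were called as well, and let-7b and let-7d had an adjusted p of 0.0735.

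Chondrocytes held more of most let-7 members than the induced cells at day 14 after TMM factors, although library size only turned the direction of 6 members. limma called 7 of 8 higher in CC, against a background of 74.6% of 276 miRNAs called and 37.7% called higher, and the groups did not overlap for 7 members (78.6% of all tested). No member differed 2-fold, as 35.5% of all tested did. let-7c was at 486, 472 and 425 TMM-normalized RPM in CC, all above the 236, 218 and 260 of CP_14 (log2 fold change 0.94, SE 0.083, adjusted p = 6.06e-06). let-7g (0.84, SE 0.068) and let-7f (0.70, SE 0.067) followed, and let-7b, let-7d, let-7a and let-7e were higher by 0.43, 0.38, 0.32 and 0.29. For let-7i the difference was 0.18 (SE 0.078, adjusted p = 0.0570) and the groups overlapped. With library size only, 1 member (let-7c, by 0.23) was called higher and 5 were called lower, of which let-7i had the largest difference (-0.53).

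Against uninduced RMCs, limma called 7 of 8 members higher in chondrocytes, where 55.8% of 260 miRNAs were called and 30% called higher. No member differed 2-fold, as 19.6% of all tested did. With the factors of this fit the groups did not overlap for any member (63.1% of all tested), although let-7i overlapped with factors over the 12 libraries. let-7d had the largest difference, from 95.3, 111 and 111 TMM-normalized RPM in CP_0 to 166, 170 and 164 in CC (log2 fold change 0.52, SE 0.088, adjusted p = 0.00278). let-7f rose from 8325, 8846 and 8433 to 14025, 13305 and 12556 TMM-normalized RPM (0.51, SE 0.050, adjusted p = 0.0003). let-7c (0.43), let-7g (0.36), let-7e (0.32), let-7a (0.18) and let-7b (0.086) were also called. let-7i went the other way without passing the threshold (-0.15, SE 0.055, adjusted p = 0.0623). The call of let-7b, at an adjusted p of 0.0439, was lost with each library left out, CP_0 replicate 3 included (6 members called), and with the replicate block (adjusted p = 0.126). With library size only, let-7a, let-7b, let-7e and let-7g turned negative and no member was called higher, while let-7i (-0.56), let-7b (-0.33) and let-7a (-0.23) were called lower.

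Against the induced cells at day 7, limma called 7 of 8 members lower in chondrocytes, where 67.4% of 276 miRNAs were called and 38.4% called lower, and the groups did not overlap for 7 members (70.7% of all tested). Of the 7, let-7b and let-7c were lower by at least 2-fold (47.8% of all tested in either direction). let-7c had a log2 fold change of -1.70 (SE 0.14, adjusted p = 5.01e-05) and let-7b one of -1.17 (SE 0.071). let-7f, the exception, did not pass the threshold (-0.12, SE 0.13, adjusted p = 0.450), and its direction depended on the factors. With factors over the 12 libraries it was at 12910, 13808 and 9547 TMM-normalized RPM in CP_7 and 14025, 13305 and 12556 in CC, so that the groups overlapped and CC had the higher mean, and the joint fit of the 12 libraries gave 0.15. It was also above 0 with RLE factors (0.039), totals without miR-21-5p (0.12), DESeq2 (0.0022) and upper-quartile factors (0.40, adjusted p = 0.0248). The median of the 8 members was -0.80 in the fit of the 6 libraries and -0.52 in the joint fit. Upper-quartile factors left let-7a, let-7b, let-7c and let-7d called lower, while let-7g (-0.15, adjusted p = 0.268) and let-7i (-0.25, adjusted p = 0.116) lost their calls. This comparison rested on CP_7 libraries, since without CP_7 replicate 1 let-7c alone was called, and without CP_7 replicate 2 let-7b, let-7c and let-7d were. With any other library left out 6 members were called, and let-7e lost its call (adjusted p = 0.0204 with all libraries) whichever library was left out.

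**Figure D3:**
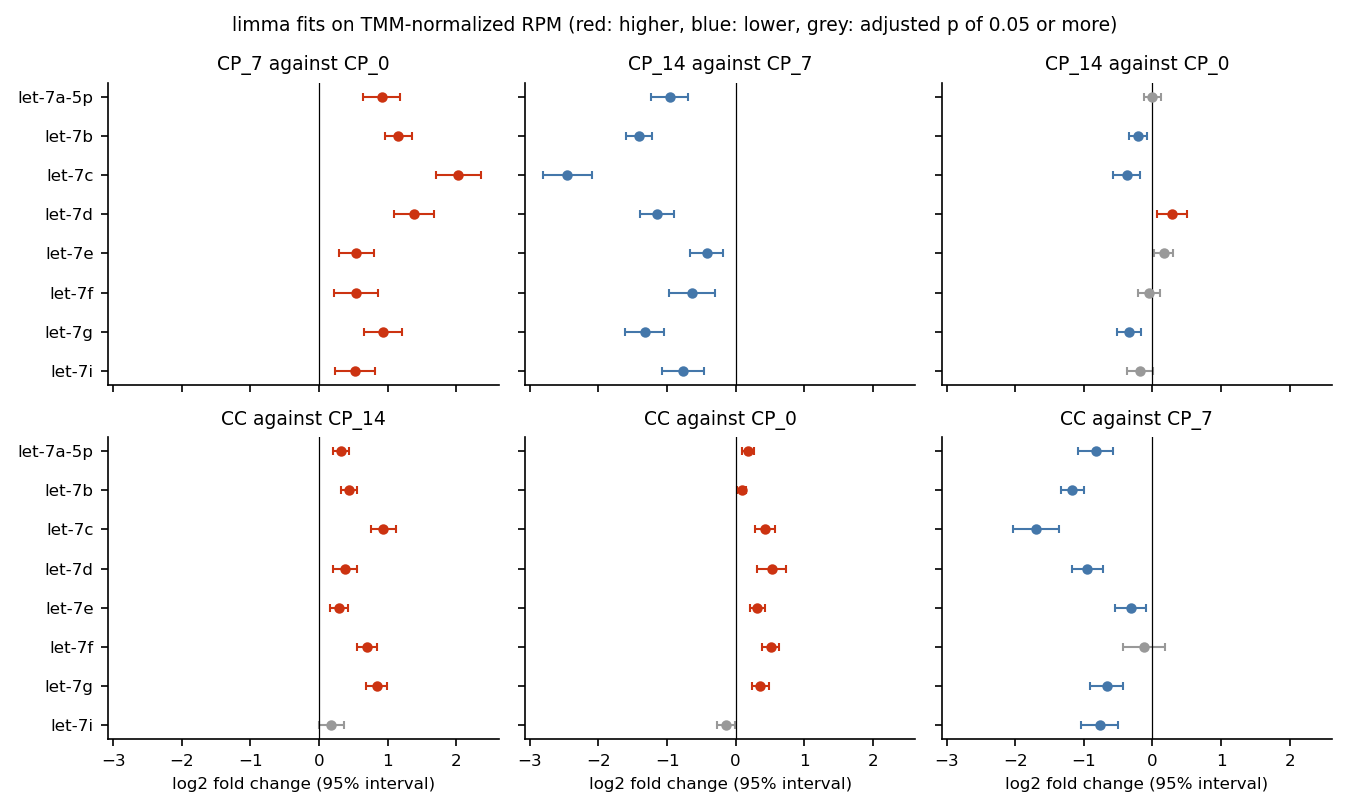
log2 fold change of each let-7 member in the 6 comparisons by limma on TMM-normalized RPM, with 95% intervals as bars, called higher in red, called lower in blue and not called in grey. All 8 points are red for CP_7 against CP_0 and all 8 blue for CP_14 against CP_7, and let-7c is the farthest from 0 in both.

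The scaling of the libraries moved the members and the other miRNAs together. A factor shifts every miRNA of a library almost equally on the log2 scale. By construction, the members' position relative to the other miRNAs can therefore hardly change with the factors. The replicate block and the 2-fold threshold leave it as it is with TMM. With library size only, the median log2 fold change over all tested miRNAs shifted to 1.12 for CP_7 against CP_0, -0.84 for CP_14 against CP_7, 0.16 for CP_14 against CP_0, -0.54 for CC against CP_14, -0.33 for CC against CP_0 and -1.44 for CC against CP_7. Relative to that median the members' median was 0.88, -1.08, -0.12, 0.24, 0.25 and -0.75 in the same order. With TMM and the 14 alternatives that keep all libraries, the members' median relative to all miRNAs was 0.79 to 0.92 for CP_7 against CP_0, -1.15 to -0.997 for CP_14 against CP_7, -0.15 to -0.12 for CP_14 against CP_0, 0.24 to 0.46 for CC against CP_14, 0.25 to 0.38 for CC against CP_0 and -0.75 to -0.64 for CC against CP_7. Calls over all miRNAs moved in the same way, from 88 higher and 69 lower to 152 and 20 for CP_7 against CP_0, from 60 and 70 to 26 and 138 for CP_14 against CP_7, from 104 and 102 to 40 and 163 for CC against CP_14, from 78 and 67 to 30 and 112 for CC against CP_0, and from 80 and 106 to 20 and 191 for CC against CP_7.

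**Figure D4:**
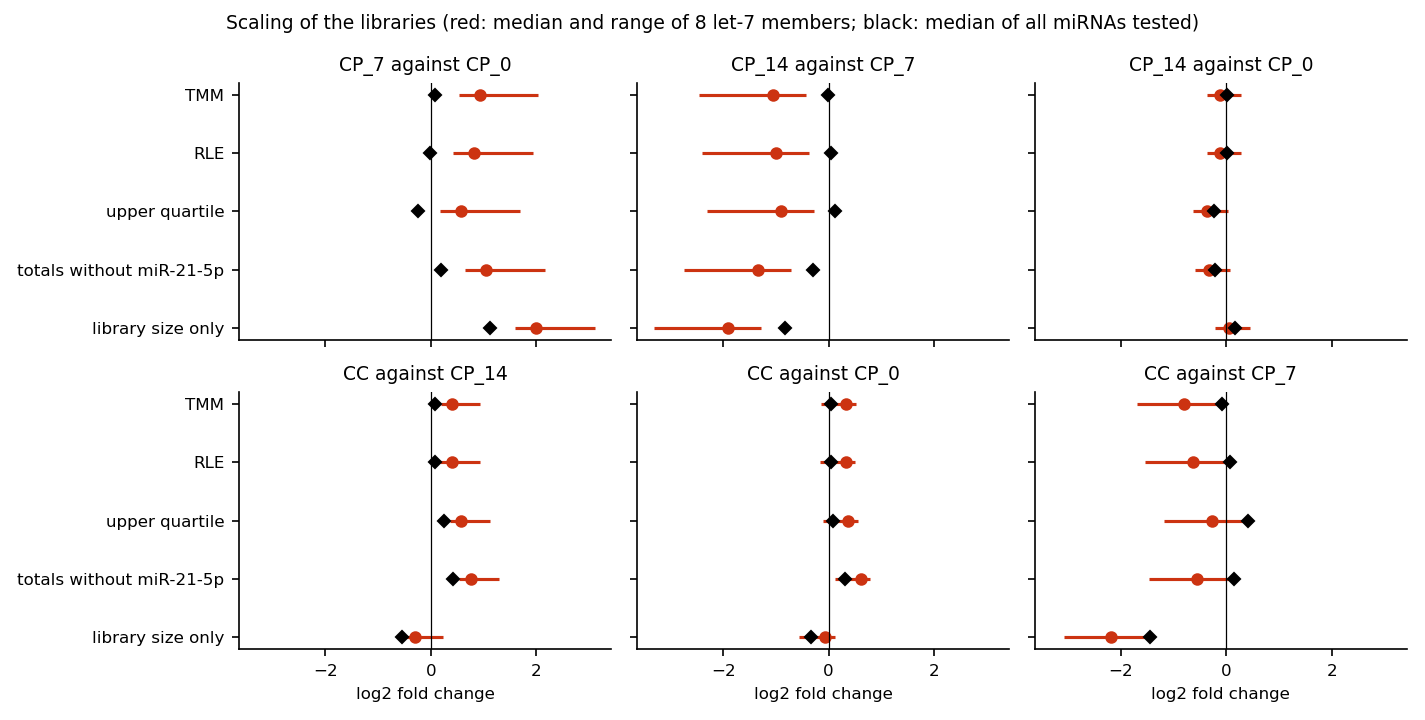
Median (red point) and range (red line) of the log2 fold change of the 8 let-7 members and median over all miRNAs tested (black diamond), for 5 ways to scale the libraries in each of the 6 comparisons. The red points lie above the black diamonds for CP_7 against CP_0 and below them for CP_14 against CP_7 under each scaling, and with library size only the medians of CC against CP_14 and CC against CP_0 lie below 0. By construction, the distance between point and diamond hardly depends on the scaling.

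The make-up of the family can be compared between groups with no scaling at all, as each member's log2 ratio to the geometric mean of the 8 members in the same library. All 8 members differed between the 4 groups in exact permutation tests over the 15400 partitions (adjusted p = 0.00026 to 0.005 over the 8 members). let-7c moved most. It held 0.387%, 0.353% and 0.403% of the let-7 reads in CP_0, 1.13%, 0.765% and 1.19% in CP_7, 0.344%, 0.315% and 0.328% in CP_14, and 0.504%, 0.529% and 0.493% in CC. Its log2 ratio was 1.03 higher in CP_7 than in CP_0 and 1.32 lower in CP_14 than in CP_7. In CP_7 the ratios of let-7e, let-7f and let-7i were lower than in CP_0 by 0.46, 0.47 and 0.48, with no overlap between the groups, although their levels were higher. The geometric mean weighs the rare let-7c and let-7d as much as the other members. As a share of the let-7 reads, let-7f overlapped between CP_0 (10.3% to 10.6%) and CP_7 (9.32% to 10.5%). The mean log2 ratio to let-7i was almost the same in CP_0 and CP_7 for let-7e (-6.95 and -6.94) and let-7f (-2.79 and -2.78). let-7d was higher in relation to the family in the other 3 groups than in CP_0, by 0.38 in CP_7, 0.38 in CP_14 and 0.25 in CC.

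In chondrocytes the make-up differed in another way. let-7f held 14.6%, 14.9% and 14.6% of the let-7 reads in CC, against 10.3% to 10.6% in CP_0, 9.32% to 10.5% in CP_7 and 11.2% to 11.3% in CP_14. let-7i held 65.2%, 64.1% and 64.5% in CC, below the 66.2% to 68.4% of CP_7, the 70.3% to 71.6% of CP_14 and the 71.5% to 72.3% of CP_0. let-7g held 7.16% to 7.23% in CC and 6.96% to 7.03% in CP_7, but 4.97% to 5.02% in CP_14 and 5.63% to 5.68% in CP_0, so that its groups did not overlap on this scale. All 8 members were still called when the share of the let-7 reads replaced the log2 ratio, and all 7 others were when the ratio was taken to let-7i. These forms use the same reads. By construction, a shift of a single member moves the ratios and shares of the others, so that the tests of the members are not independent of each other.

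**Figure D5:**
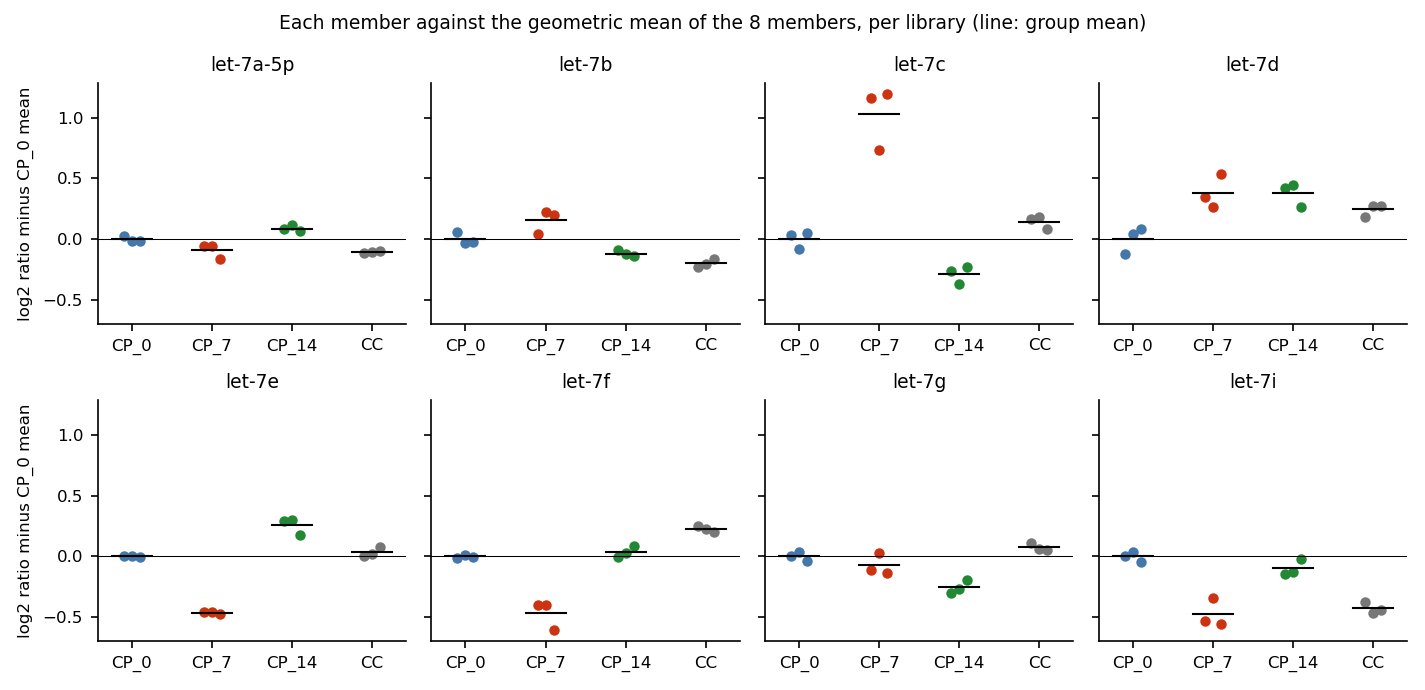
Log2 ratio of each let-7 member to the geometric mean of the 8 members in the same library, minus the mean of the CP_0 libraries, with a point for each of the 12 libraries and a line for each group mean. In CP_7 let-7c lies about 1 above CP_0 while let-7e, let-7f and let-7i lie below it.

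The miRNAs encoded beside let-7 genes did not all move with them. miR-98, which carries the let-7 seed and is encoded beside let-7f, was at 132, 129 and 155 TMM-normalized RPM in CP_0, 235, 246 and 235 in CP_7, 118, 132 and 144 in CP_14, and 271, 283 and 264 in CC. It rose at day 7 (log2 fold change 0.84, SE 0.11, adjusted p = 0.000441), fell to day 14 (-0.94, SE 0.13) and was more abundant in CC than in CP_14 (1.04, SE 0.091). miR-99a-5p, beside let-7c, was at 2717, 2478 and 2594 TMM-normalized RPM in CP_0, 6780, 7523 and 6711 in CP_7, 1609, 1627 and 1568 in CP_14, and 3178, 3135 and 3325 in CC. It rose at day 7 with a log2 fold change of 1.48 (SE 0.069, adjusted p = 3.42e-06) and fell by 2.21 to day 14 (SE 0.066, adjusted p = 1.28e-06). The partners of let-7e differed from each other. miR-125a was higher in CP_7 than in CP_0 (0.46, SE 0.11, adjusted p = 0.00808), whereas miR-99b was lower (-0.78, SE 0.076, adjusted p = 0.000102). After TMM factors miR-100 and miR-125b, which are encoded beside a let-7a gene, were both lower at day 7. miR-100 fell from 31420, 30702 and 30997 to 7463, 8810 and 8611 TMM-normalized RPM (-1.86, SE 0.074, adjusted p = 3.42e-06), and miR-125b changed by -0.52 (SE 0.073, adjusted p = 0.000659). Of the 6 partners, 3 were called higher and 3 lower for CP_7 against CP_0 (63.8% of all tested miRNAs called), 2 higher and 3 lower for CP_14 against CP_7 (52.8%), 1 higher and 3 lower for CP_14 against CP_0 (46%), and 3 higher and 1 lower for CC against CP_7 (67.4%). All 6 were called higher in CC than in CP_14 and in CP_0, where 37.7% and 30% of all tested were. In RPM as deposited, several of these differences had the other sign. The mean RPM in CC was below that in CP_0 for miR-99a-5p (1939 against 2281), miR-99b (1348 against 1486), miR-100 (22652 against 27235) and miR-125b (1863 against 2110). It was below that in CP_14 for miR-99b (1348 against 1965) and miR-125a (310 against 332). On the same scale miR-99b, miR-125a and miR-125b were higher in every CP_7 library than in any CP_0 library, so that the falls of miR-99b and miR-125b at day 7 were reversed without TMM factors, while miR-100 was lower on both scales.

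Among the 258 other miRNAs with a cattle name that passed the filter over all libraries, those whose log2(TMM-normalized RPM + 1) followed the summed let-7 level most closely over the 12 libraries were miR-145 (Pearson's r = 0.93), miR-99a-5p (0.92) and miR-494 (0.90). For single members the closest was miR-99a-5p for let-7a (0.92), let-7b (0.97) and let-7c (0.97), miR-148a for let-7d (0.93), miR-365-5p for let-7e (0.96), miR-6119-5p for let-7f (0.96), miR-423-3p for let-7g (0.95) and miR-494 for let-7i (0.94). The 12 libraries fall into 4 groups, and all values of a library share its depth and its scaling factor.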

How the data were processed

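Small RNA of 12 libraries was sequenced on an Illumina NovaSeq instrument after preparation with a NEBNext small RNA kit. The authors deposited a value for each miRNA and library, headed TPM but in RPM, since every library sums to 1000000 and nothing is divided by length. The submitters' processing notes name CASAVA, bcl2fastq 1.8.4 and Bowtie. Not given in the sources used here were the trimming, the counter and the miRNA database. Reads were recovered as whole multiples of the value of 1 read (100% of values whole within 0.01 read). Each library pair of a group differed beyond sampling noise (chi-square per degree of freedom at least 4.92). That lowest value belonged to CP_14 replicates 1 and 2, which were more alike than any other pair (25.6 to 252). A count of 0 in the shallowest library allows up to 5.56 RPM (3 reads, counting error only).

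The main test was limma 3.58.1 (trend option, two-sided) on log2(TMM-normalized RPM + 1), fitted on the 6 libraries of each comparison in R 4.3.3. TMM factors were computed over all listed miRNAs, before edgeR 4.0.16 filterByExpr (minimum count 10, minimum total 15). Levels by library use factors over the 12 libraries, so that they can differ from the fitted fold changes, most for CC against CP_7, where let-7f has another sign. Fold changes on this scale understate those of miRNAs with few reads. All 8 members, the 6 cluster partners (miR-98 among them), miR-3596, miR-21-5p and the closest miRNAs by Pearson's r were named. The members and lists were chosen with earlier results of these data known. Alternatives were library size only, upper-quartile and RLE factors, totals without miR-21-5p, edgeR quasi-likelihood and DESeq2 1.42.0 on the recovered reads, pseudocounts of 0.5 and 5 RPM, no filter, names sharing reads collapsed (7 pairs within 1%), all 12 libraries in a joint fit, the replicate block, at least 2-fold, and leaving out each library. TMM factors after the filter were added after seeing the data. Same-numbered libraries deviated together in CC against CP_7 (r = 0.12 to 0.17 over 284 miRNAs), where the block changed no call of a member. The fits were tested on simulated data.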

Additional observations from a re-analysis of the deposited data

How the results depend on the processing

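Direction and call were kept in 146 of the 160 refits of single members for CP_7 against CP_0 and in 150 for CP_14 against CP_7, and none reversed there. They were kept in 125 for CP_14 against CP_0 (7 reversed), 142 for CC against CP_14 (6 reversed), 126 for CC against CP_0 (5 reversed) and 126 for CC against CP_7 (10 reversed). With at least 2-fold required, 3, 4, 0, 0, 0 and 2 members were called for CP_7 against CP_0, CP_14 against CP_7, CP_14 against CP_0, CC against CP_14, CC against CP_0 and CC against CP_7, against 8, 8, 4, 7, 7 and 7. Upper-quartile factors called 5, 7, 4, 8, 6 and 5 in the same order. Library size only called 2 for CP_14 against CP_0, where let-7a (0.16) and let-7f (0.11) changed sign, and 3 for CC against CP_0, where let-7a (-0.23), let-7b (-0.33), let-7e (-0.093) and let-7g (-0.053) did. For CC against CP_14 it turned let-7a (-0.39), let-7b (-0.28), let-7d (-0.33), let-7e (-0.42), let-7f (-0.015) and let-7i (-0.53). By construction it leaves the share of miR-21-5p in the values. In CP_14 against CP_0, let-7e reversed with upper-quartile factors (-0.086) and with totals without miR-21-5p (-0.052), and let-7a with TMM factors after the filter (0.026), an alternative chosen after seeing the data. In CC against CP_0, let-7i reversed with totals without miR-21-5p (0.12). In CC against CP_7, let-7f reversed with RLE factors (0.039), upper-quartile factors (0.40, called), totals without miR-21-5p (0.12), DESeq2 (0.0022) and all 12 libraries in a joint fit (0.15), and let-7e with upper-quartile factors (0.20). The cause was not tested.

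Leaving out each library gave 5 to 8 members called for CP_7 against CP_0, 6 to 8 for CP_14 against CP_7, 2 to 5 for CP_14 against CP_0, 7 to 8 for CC against CP_14, 6 to 7 for CC against CP_0 and 1 to 6 for CC against CP_7. The log2 fold change then ran from -0.061 to 0.016 for let-7a in CP_14 against CP_0, and from -0.34 to 0.28 for let-7e and from -0.15 to 0.51 for let-7f in CC against CP_7. Without CP_7 replicate 1 or 2 the median over all miRNAs of CP_7 against CP_0 was -0.12 or -0.14, and that of the members 0.66 or 0.63. The replicate block called 8, 7, 2, 7, 6 and 7 members in the order above. Apart from CC against CP_7, r between same-numbered libraries ran from -0.29 to 0.13, and 2 libraries correlated best with their own number. These values cannot tell whether same-numbered libraries came from the same animal, which the labels do not say. The permutation tests of the let-7 share and of the make-up stayed on the same side of the threshold under each alternative run. Counting error is small for the common members, while let-7d rests on 263 to 471 reads in each library of CP_0, CP_7 and CP_14. The CP_7 libraries were the shallowest and the CC libraries the deepest, so that depth cannot be told apart from group.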
